A study of Caenorhabditis elegans with 6 samples.

Results

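Vitellogenins are the yolk proteins of the nematode Caenorhabditis elegans, and rme-2 encodes the receptor through which growing oocytes take them up. The table of 25212 genes held all 7 of these genes, vit-1 to vit-6 and rme-2, which were found by gene name. The libraries came from poly(A)-selected RNA of whole animals of the wild-type strain N2. In 3 of them (ASP) the worms had been given aspartame, at 100 µM per the series' design text, and the other 3 (Control) are labelled as controls with no further treatment. The study asked about innate immunity to Pseudomonas aeruginosa. Neither exposure to the bacterium nor the age or stage of the sequenced worms is stated in the labels.

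Yolk is made in the intestine of the hermaphrodite, not in the germ line. From about the larval-to-adult transition the gut transcribes the vitellogenin genes, secretes the large lipid-carrying proteins into the body cavity, and the oocytes bind them with RME-2, a member of the LDL receptor family, and internalize them through clathrin-coated pits. Ligands and receptor are thus made in different tissues. The proteins of vit-1 and vit-2 resemble each other closely, as do those of vit-3, vit-4 and vit-5, whereas vit-6 encodes a more distant precursor that is cut into smaller yolk polypeptides.

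Of the 6 vitellogenin genes, 5 lie on chromosome X (coordinates of build WBcel235, as in the table). vit-4 (gene ID 180646, X 3558769 to 3563965, minus strand) and vit-3 (24104675, X 3567355 to 3572549, minus strand) are neighbours, with 3389 bases and 0 other genes of the table between them. vit-5 (180630, X 3403471 to 3408603, plus strand) ends 150 kb before vit-4 begins. vit-2 (180781, X 5101042 to 5106169) and vit-1 (181034, X 7727889 to 7733168) stand alone on the plus strand. vit-6 (177619, IV 8261157 to 8266459) and rme-2 (177329, IV 5470026 to 5473174) are on the plus strand of chromosome IV. In the Ensembl annotation the vitellogenin transcripts have 5 or 6 exons and 4809 to 4950 coding bases, against 7 exons and 2775 coding bases in the longer rme-2 transcript. The antisense gene C42D8.9 overlaps vit-2, with a mean of 0.200 FPKM, and no other gene of the table overlaps a member. As the use of strand in the counting is not stated, it is not known how reads in the overlap of C42D8.9 and vit-2 were assigned.

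Total counts were 53558562 to 63581942 per library, and ribosomal RNA took 3.24% to 7.19% of them. FPKM, the deposited measure, scales fragments to transcript length and sequencing depth, so levels of different genes can be set side by side. All 7 genes were among the 13790 tested, those with a mean of at least 1 FPKM, and none was near that limit. The groups share the replicate numbers 1, 2 and 3. Over all tested genes, the ASP and Control libraries that carry the same number deviated together, so a number is treated here as marking a pair. The labels give neither the meaning of the numbers nor separate cultures, and the spread that the p-values rest on may therefore be technical.

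The vitellogenins differed several-fold among themselves in level. vit-6 was the most abundant, with a mean of 714 FPKM over the 6 libraries, rank 179 in the table. It was followed by vit-2 with 599 FPKM (rank 222), vit-5 with 312 (rank 372), vit-3 with 223 (rank 477), vit-4 with 199 (rank 533) and vit-1 with 103 (rank 1011). The receptor gene rme-2 averaged 69.8 FPKM (rank 1424). Neighbours in this order were compared within each library. vit-6 was above vit-2 in 6 of 6 libraries (1.22-fold), vit-2 above vit-5 in 6 (1.998-fold), vit-3 above vit-4 in 6 (1.15-fold) and vit-4 above vit-1 in 6 (2.01-fold). Each of these pairs had p = 0.0312 in a two-sided exact sign-flip permutation test over 6 libraries (adjusted p 0.0469 over the 6 pairs of neighbours). vit-5 was above vit-3 in 4 of 6 libraries (exact p = 0.125, adjusted 0.125) and vit-1 above rme-2 in 5 of 6 (exact p = 0.0625, adjusted 0.075). The test takes the libraries as independent, although those of a number resemble each other. The pairs and their direction were taken from the mean levels of these same libraries, so the p-values do not support the order. With the mean of a number as the unit, tried only with the results known, no pair of neighbours passed, since 3 numbers cannot give an exact p below 0.25 (adjusted p 0.3 to 0.5). The order is therefore a description of these libraries. Fragments of vit-3, vit-4 and vit-5, or of vit-1 and vit-2, may fit more than 1 gene. How such fragments were counted is not given in the sources used here, and the levels of these 5 genes are uncertain for that reason.

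Aspartame-fed worms and controls had overlapping vitellogenin levels. vit-2 had 749, 741 and 242 FPKM in ASP 1, 2 and 3, and 912, 691 and 261 FPKM in Control 1, 2 and 3. vit-6 had 874, 884 and 309 FPKM in ASP, and 1032, 833 and 352 FPKM in Control. In both genes the library numbered 3 was the lowest of its group, and the spread within a group was far wider than the distance between the groups.

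The same overlap was seen in the vit-3 group. vit-3 had 231, 301 and 119.9 FPKM in ASP 1, 2 and 3, and 285, 266 and 133 FPKM in Control 1, 2 and 3. vit-4 had 200.1, 286 and 96.2 FPKM in ASP, and 257, 253 and 102 FPKM in Control. vit-5 had 386, 411 and 111 FPKM in ASP, and 478, 377 and 109 FPKM in Control. ASP and Control overlapped in each of the 3 genes. vit-1, the least abundant vitellogenin, had 107, 147 and 43.6 FPKM in ASP, and 143, 138 and 41.3 FPKM in Control. The receptor gene rme-2 had 95.7, 70.6 and 37.04 FPKM in ASP, and 103, 70.4 and 41.9 FPKM in Control. Here the libraries of each number lay close together, and those of different numbers did not overlap.

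**Figure D1:**
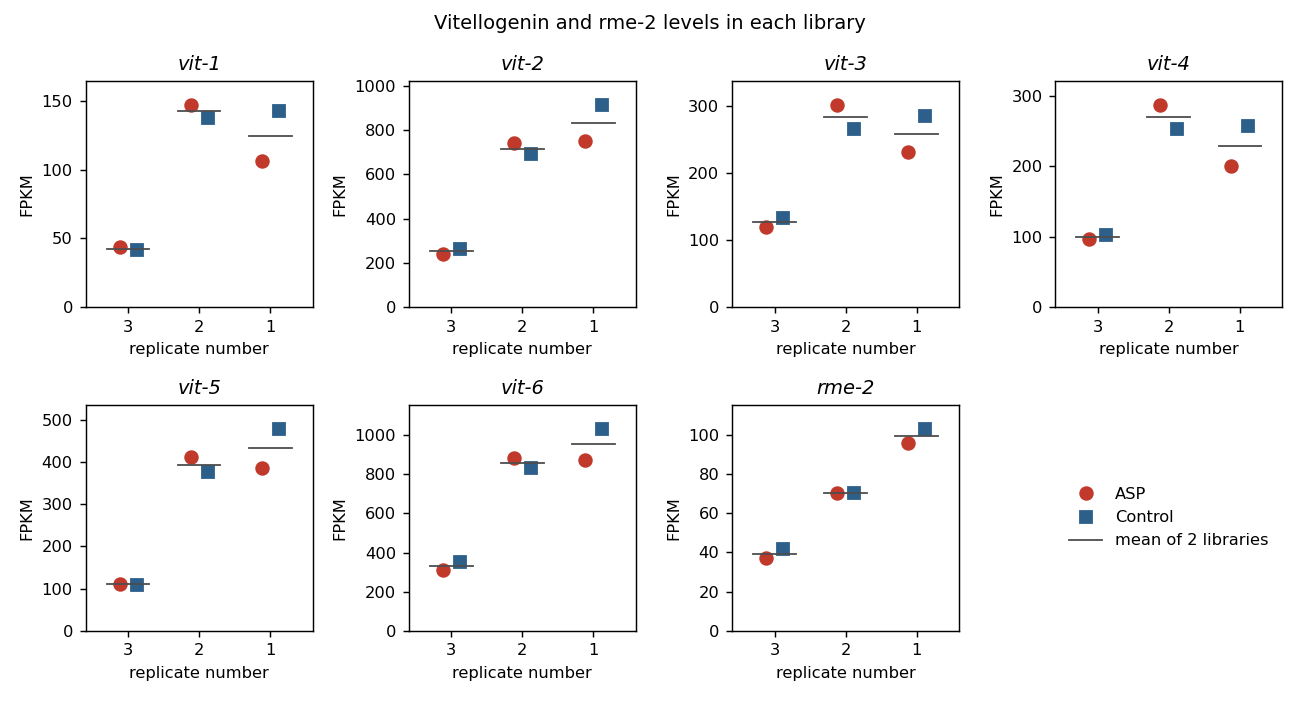
FPKM of the 6 vitellogenins and rme-2 in each library, by replicate number (3, 2, 1) with ASP as circles, Control as squares and the mean of the 2 libraries of a number as a line. The libraries numbered 3 are the lowest for every gene, and rme-2 has a separate level for each number (means of 39.5, 70.5 and 99.4 FPKM in numbers 3, 2 and 1).

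No member was called between ASP and Control, and neither was any other gene. By edgeR's quasi-likelihood test 0 of 13790 genes passed (0% of those tested), with 62 at an unadjusted p under 0.05. DESeq2 and limma on log2(FPKM + 1) also called 0, with 73 and 71 at an unadjusted p under 0.05. In these fits without a block the spread between the numbers is part of the error, so small differences could hardly be called. The fitted differences were small and below 0 for all 7 members. They ran from a log2 of −0.12 (SE 0.55) for vit-1 to −0.08 (SE 0.46) for vit-4 among the vitellogenins, with adjusted p-values of 0.9999 in edgeR, and the median over all tested genes was 0.00. rme-2 stood at −0.10 (SE 0.40). The 95% intervals were wide, reaching from −1.60 to 1.41 for vit-5 and from −0.99 to 0.84 for vit-3, so differences of up to 1.79-fold in either direction lay within the interval of every member.

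With the replicate number as a block the estimates stayed near −0.1 and the intervals narrowed. vit-6 was then at −0.13 (SE 0.13, 95% interval −0.42 to 0.15), vit-2 at −0.12 (SE 0.12, −0.40 to 0.16) and rme-2 at −0.11 (SE 0.08, −0.29 to 0.06). None of the 7 members was called, and no gene was (0% of 13790, with 369 at an unadjusted p under 0.05). The pairs did not point the same way. In pair 1 all 6 vitellogenins were lower in ASP, by log2 FPKM ratios of −0.42 (vit-1) to −0.24 (vit-6). In pair 2 all 6 were higher in ASP, by 0.09 (vit-6) to 0.18 (vit-4). In pair 3, 4 were lower and 2 higher, between −0.19 (vit-6) and 0.08 (vit-1). rme-2 had ratios of −0.11, 0.00 and −0.18 in pairs 1, 2 and 3. Without the pair numbered 2, which was tried only once the data were known, the blocked estimates of the vitellogenins were farther from 0, at −0.27 for vit-3 and −0.19 for vit-5, and rme-2 was at −0.19. In that fit, which has 1 residual degree of freedom, 5 of the 7 members and 697 of 13790 genes had an unadjusted p under 0.05. All 7 members had an adjusted p of 0.849 in edgeR, and 0 genes were called. With pair 1 or pair 3 left out in its place, 0 of the 7 members had an unadjusted p under 0.05 in the blocked edgeR fit.

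**Figure D2:**
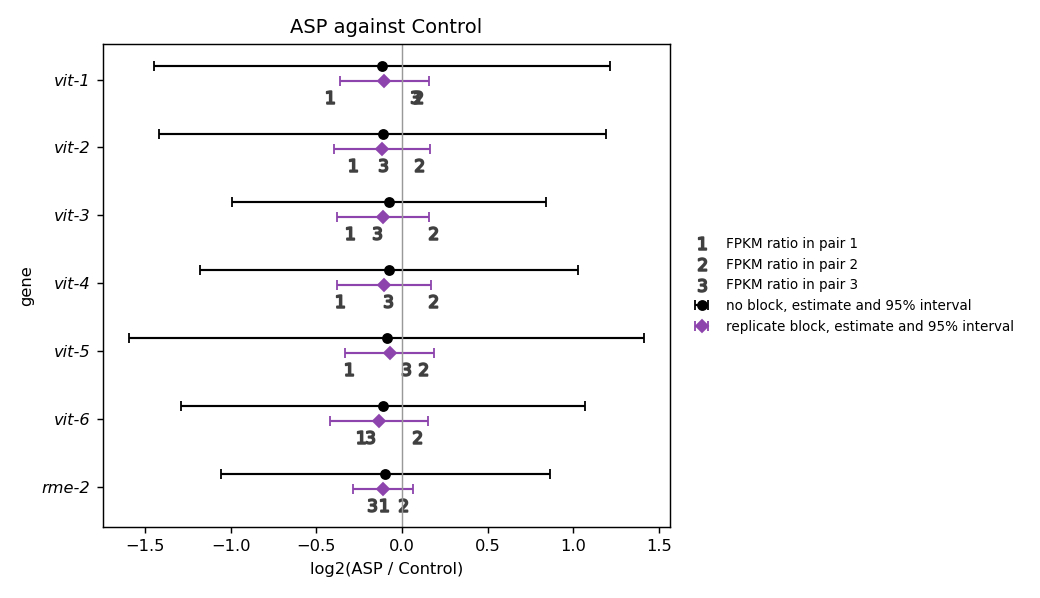
Log2 of ASP over Control for each gene from edgeR without a block (circles) and with the replicate number as a block (diamonds), each with its 95% interval, and the FPKM ratio within each pair as the digit of its number. All 14 intervals include 0, and the ratios of pairs 1 and 2 lie on opposite sides of 0 for each vitellogenin.

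As a family, the vitellogenins held shares of all counts that overlapped between ASP and Control. They took 1.49%, 1.61% and 0.540% of the counts of ASP 1, 2 and 3, against 1.80%, 1.48% and 0.587% of those of Control 1, 2 and 3. The mean share was 1.21% ± 0.586 in ASP and 1.29% ± 0.631 in Control (SD, n = 3 each), a difference of −0.0773 percentage points with an exact two-sided permutation p of 0.8. No counting interval is given, because the deposited counts may be estimates and not numbers of reads. With 3 libraries against 3 this test cannot give a p below 0.1. It does not use the pairs, so the spread between the numbers is part of it. Within the pairs, the share was lower in ASP in pairs 1 and 3 and higher in pair 2. The permutation tests of the vit-6 part and of the rme-2 ratio below are unpaired too. The sign of the difference in mean share changed when some single libraries were left out: it was 0.259 without ASP 3, 0.179 without Control 1 and 0.0186 without Control 2. Leaving out 1 library breaks its pair, so the differences between the numbers enter these values.

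The replicate numbers separated the members. All 7 genes passed the edgeR F test for a difference between the numbers, in a model with the group as a covariate, against 33.2% of all tested genes. Adjusted p-values ran from 9.13e-05 for vit-5 to 0.00172 for vit-3, with 0.000122 for rme-2. This test, and the grouping by number, were chosen when it was already known that libraries of a number resemble each other. In whole animals, fewer cells of a type and less RNA per cell cannot be told apart.

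Both libraries numbered 3 had less vitellogenin mRNA than all 4 of the others, for each of the 6 genes and for rme-2. Of all tested genes, 35% were lowest in these 2 libraries in the same way. vit-5 had the largest difference, with a mean of 110.2 FPKM in number 3 and 432 FPKM in number 1 (log2 −1.87, SE 0.14, adjusted p 4.3e-05 in edgeR), a 3.65-fold lower fitted level. vit-2 had 252 FPKM in number 3 and 830.3 FPKM in number 1 (log2 −1.62, SE 0.15), and vit-6 had 331 FPKM in number 3 and 953 FPKM in number 1 (log2 −1.43, SE 0.16). vit-3 had the smallest difference, with 126 FPKM in number 3 and 258 FPKM in number 1 (log2 −0.93, SE 0.14, adjusted p 0.0016 in edgeR), or 1.90-fold. All 7 members passed as lower in number 3 than in number 1, where 19.1% of the tested genes did, with a median log2 of −1.43 over the 7 members and −0.01 over all tested genes.

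The vitellogenins were also lower in number 3 than in number 2. The log2 differences ran from −1.75 for vit-5 to −1.08 for vit-3, and all 6 passed. rme-2 passed too, with 39.5 FPKM in number 3 and 70.5 FPKM in number 2 (log2 −0.75, SE 0.09, adjusted p 0.000966 in edgeR). Of all tested genes 12.2% passed as lower in this comparison, which shares its libraries numbered 3 with the comparison before.

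Between numbers 2 and 1 the ligands and the receptor gave different calls. None of the 6 vitellogenins passed: vit-4, vit-1 and vit-3 had values above 0 (log2 0.25, 0.21 and 0.15, SE 0.14 to 0.15) and vit-2, vit-6 and vit-5 values below 0 (−0.20, −0.14 and −0.12). rme-2 was lower in number 2, with 70.5 FPKM against 99.4 FPKM in number 1 (log2 −0.49, SE 0.09, adjusted p 0.0279 in edgeR), where 1.14% of all tested genes passed as lower. This call ended when ASP 1, ASP 2, Control 1 or Control 2 was left out (adjusted p 0.114, 0.0552, 0.102 and 0.240 in edgeR), though the value stayed between −0.59 and −0.38. Whether the receptor differed from the vitellogenins in this comparison was not tested, since 2 libraries against 2 cannot give an exact p below 0.333.

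**Figure D3:**
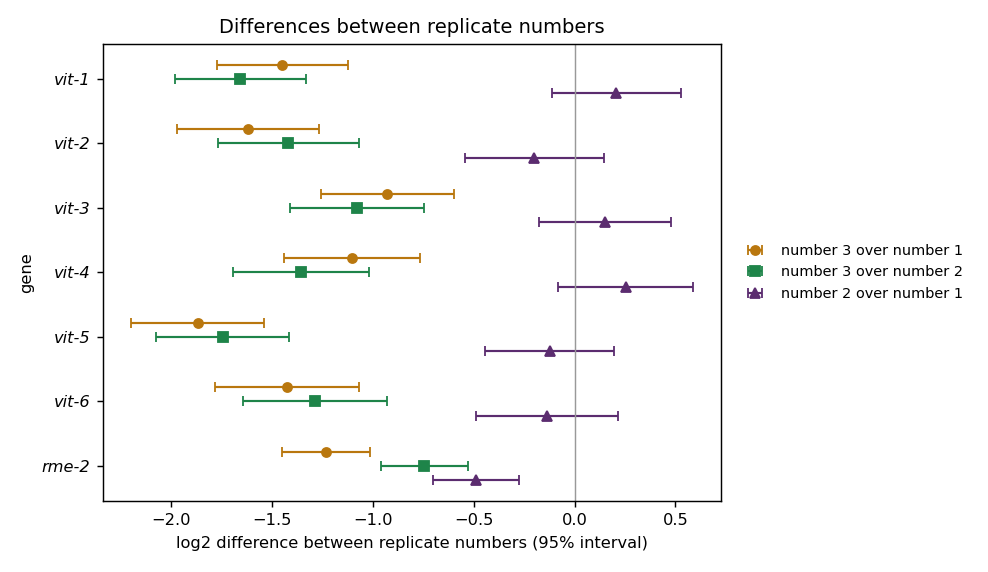
Log2 difference between replicate numbers for each gene, from edgeR with the group as a covariate, with 95% intervals. Numbers 3 against 1 and 3 against 2 lie between −1.87 and −0.75, while number 2 against 1 has intervals across 0 for all 6 vitellogenins and below 0 for rme-2.

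The mix of the family shifted with the number as well. vit-6 had the largest part in every library, with 34.3%, 31.9% and 33.5% of the vitellogenin FPKM sum of ASP 1, 2 and 3, against 33.2%, 32.6% and 35.3% of that of Control 1, 2 and 3. Its mean part was 33.2% ± 1.23 in ASP and 33.7% ± 1.43 in Control (SD, n = 3 each; exact two-sided permutation p = 0.7). vit-5 made up 12.1% and 10.9% of the sum in ASP 3 and Control 3, against 14.7% to 15.4% in the other 4 libraries. vit-3 had a larger part there, with 13.0% and 13.3% in ASP 3 and Control 3, against 9.07% to 10.9% in the others. The ratio of vit-5 to vit-3 was 0.926 in ASP 3 and 0.824 in Control 3, and between 1.36 and 1.68 in the other libraries. vit-2 exceeded vit-1 by 5.04-fold in ASP 2 and 5.00-fold in Control 2, and by 5.56-fold to 7.02-fold in the other 4. The gene pair with the most constant ratio was vit-2 and vit-6, which lie on different chromosomes (SD of the log2 ratio 0.09 over 6 libraries), followed by the neighbours vit-3 and vit-4 (SD 0.13). Of the pairs of vitellogenins, vit-3 and vit-5 had the least constant ratio (SD 0.44). These ratios are given as a description, since part of the fragments of such copies may have been assigned to either gene.

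**Figure D4:**
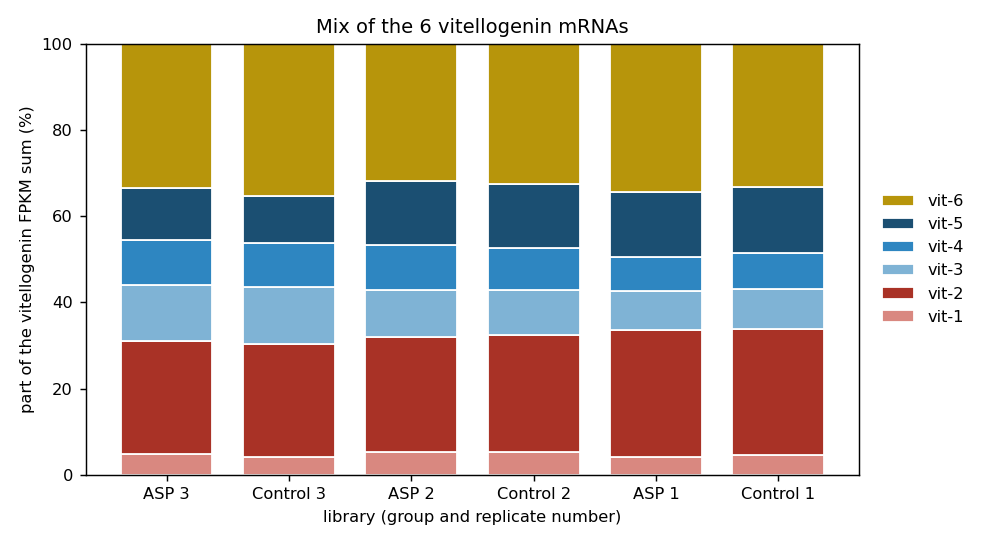
Part of each vitellogenin in the FPKM sum of the 6 genes, in percent, for the ASP and Control libraries of replicate numbers 3, 2 and 1. The part of vit-3 is largest, and that of vit-5 smallest, in ASP 3 and Control 3.

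Set against its ligands, the receptor mRNA was most abundant in number 3. The vitellogenin FPKM sum exceeded the rme-2 FPKM by 24.9-fold in ASP 3 and 23.9-fold in Control 3, by 39.2-fold and 36.3-fold in ASP 2 and Control 2, and by 26.6-fold and 30.1-fold in ASP 1 and Control 1. ASP and Control overlapped. The mean log2 ratio of rme-2 to the sum was −4.89 ± 0.355 in ASP and −4.89 ± 0.304 in Control (SD, n = 3 each; exact two-sided permutation p = 1).

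The profile of the receptor gene over the libraries lay nearest to genes of the oocyte and its eggshell. Likeness was measured as the root mean square difference of centred log2(FPKM + 1) values over the 6 libraries, among 13545 other protein-coding genes. The 5 genes nearest to rme-2 were cpg-1, a chondroitin proteoglycan of the eggshell (0.025), dgtr-1, a diacylglycerol acyltransferase relative (0.025), meg-3, a P granule protein gene (0.026), cbd-1, an eggshell chitin-binding protein gene (0.026), and the lectin gene clec-88 (0.037). The vitellogenins were farther from rme-2, at 0.23 (vit-6) to 0.42 (vit-5). The 5 genes nearest to the mean vitellogenin profile were nas-9, an astacin metalloprotease gene (0.041), zmp-3, a matrix metalloprotease gene (0.059), and tag-290, K01C8.1 and C54D10.10 (0.084 to 0.098), which the table describes as uncharacterized. nas-9 had 2.81, 10.6 and 9.31 FPKM in ASP 3, 2 and 1, and 2.84, 9.45 and 11.02 FPKM in Control 3, 2 and 1. Its 2 libraries numbered 3 were below the other 4, as for the vitellogenins. The 1 FPKM added before the logarithm shrinks ratios more at low levels. nas-9, zmp-3 and meg-3 averaged 7.68, 4.99 and 4.80 FPKM, so their nearness may depend on it, which was not tested.

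Markers of oocytes and of the molt moved with the numbers beside the members. None of the genes in the lists that follow was at 0 in any library. Of 19 oocyte and eggshell genes, 19 were lower in number 3 than in number 1 (median log2 −1.15) and 8 were lower in number 2 than in number 1 (median −0.43), with 0 higher. Examples in number 3 against number 1 are chs-1, the chitin synthase of the eggshell (log2 −1.34), oma-2, an oocyte maturation factor gene (−1.36), and pos-1, which encodes a maternal RNA-binding protein (−1.37). Their summed level was 1236 to 3042 FPKM in ASP and 1447 to 3247 FPKM in Control. Of 14 molting and larval cuticle genes, 14 were higher in number 3 than in number 1 (median 2.47) and 12 in number 2 than in number 1 (median 1.13). mlt-10 had a log2 of 2.45 in number 3 against number 1, and lin-42, a period-like gene of molting time, 1.83. The summed molting level was 266 to 1384 FPKM in ASP and 310 to 1207 FPKM in Control. Of 12 sperm genes, 4 were higher in number 3 than in number 1 and 0 lower (median 0.26), among them spe-4 (log2 1.19), and their sum was 814 to 1007 FPKM in ASP and 925 to 1069 FPKM in Control. Of all tested genes, 18.3% were called higher and 19.1% lower in number 3 than in number 1, and 2.7% higher and 1.14% lower in number 2 than in number 1. No gene of these lists was called between ASP and Control. The part of stage or cell composition in the vitellogenin and rme-2 differences was not tested.

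Markers of the gut, the tissue that makes the vitellogenins, were called about as often as all tested genes, of which 18.3% were higher and 19.1% lower in number 3 than in number 1. Of 10 intestine genes, 2 were lower in number 3 than in number 1, the gut actin act-5 (log2 −0.46) and the intermediate filament gene ifb-2 (−0.48), and 2 were higher, the protease gene cpr-6 (1.15) and the esterase gene ges-1 (0.38). The median was −0.05, and the summed level was 4102 to 4387 FPKM in ASP and 4052 to 4511 FPKM in Control. The protease gene asp-1, with a mean of 2651 FPKM, made up most of this sum. In number 3 against number 2, 9 of the 10 were below 0 and 1 above (median log2 −0.21). There 2 were called lower and 1 higher, where 12.2% of all tested genes were lower and 12.1% higher. In number 3 against number 1 the 6 vitellogenins differed by more than act-5 and ifb-2, with log2 values of −1.87 to −0.93. The difference between the vitellogenins and the marker genes itself was not tested.

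**Figure D5:**
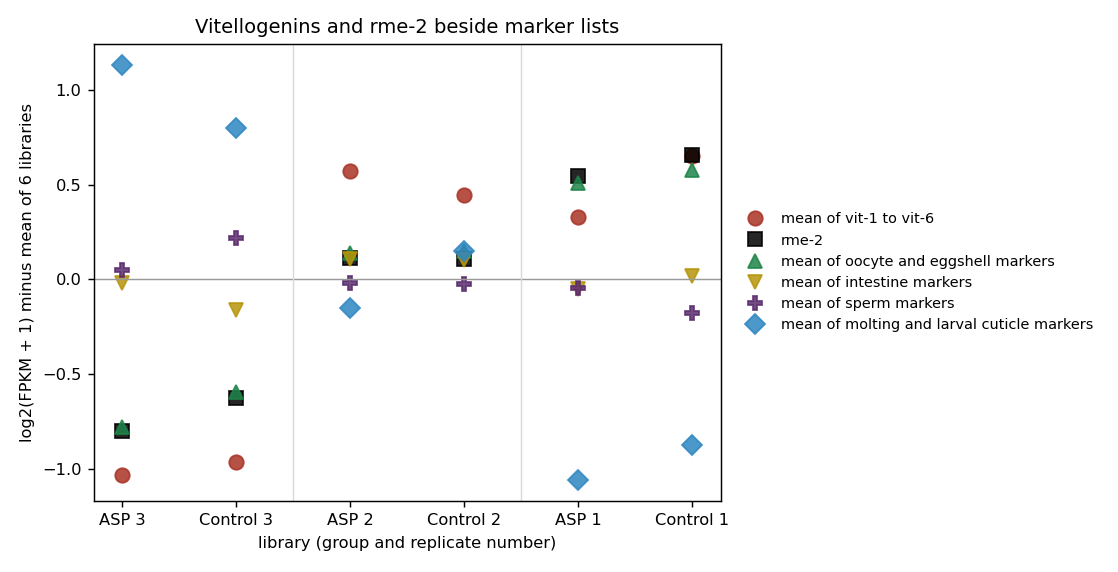
Log2(FPKM + 1) minus the mean of the 6 libraries, for the mean of the vitellogenins, for rme-2 and for the means of 4 marker lists, in the ASP and Control libraries of numbers 3, 2 and 1. rme-2 lies beside the oocyte and eggshell markers in every library (−0.80 and −0.78 in ASP 3), the vitellogenins are lower in number 3 (−1.03 in ASP 3), and the intestine markers stay between −0.16 and 0.11.

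None of 16 known regulators of vitellogenin expression was called between ASP and Control (0% of all tested genes). The smallest p belonged to daf-16, the FOXO factor of insulin signalling (log2 0.08, SE 0.10). The gut GATA factor elt-2, which binds vitellogenin promoters, was at 0.02 (SE 0.14), and the zinc-finger gene pqm-1 at −0.09 (SE 0.13). unc-62 and ceh-60, homeodomain genes required for vitellogenin expression, were at 0.08 (SE 0.13) and 0.06 (SE 0.16). Between number 3 and number 1, 3 of the 16 regulators were higher and 5 lower, where 18.3% of all tested genes were higher and 19.1% lower. These counts are given as a description, and nothing particular to the regulators is read from them. The higher ones were lin-29, the zinc-finger factor of the larval-to-adult switch (log2 0.71), the heterochronic gene hbl-1 (1.10) and unc-62 (0.25). The lower ones with the smallest p were lin-41, a heterochronic gene also active in oocytes (−0.83), rict-1, which encodes a subunit of the kinase complex TORC2 (−0.50), the insulin receptor gene daf-2 (−0.40) and the sex-determination factor gene tra-1 (−0.40). elt-2 (−0.20, adjusted p 0.258 in edgeR), ceh-60 (−0.32, adjusted p 0.0895) and pqm-1 (−0.05, adjusted p 0.732) did not pass.

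Genes of endocytosis and lipoprotein handling, by which yolk is loaded and taken up, gave no call among 20 between ASP and Control. dsc-4, the microsomal triglyceride transfer protein gene, was at log2 −0.09 (SE 0.12), and rme-1, which recycles endocytosed receptors, at −0.03 (SE 0.09). Between number 3 and number 1, 5 of the 20 were higher and 4 lower (median 0.05), near the 18.3% higher and 19.1% lower of all tested genes, so the genes named next are values and not a result about the list. rme-1 (−0.01) and dsc-4 (−0.02) did not pass. The higher ones with the smallest p were lrp-1, an LDL receptor relative of the epidermis (1.501), the epsin gene epn-1 (0.67) and the adaptor subunits aps-2 (0.82) and apa-2 (0.46). The lower ones were the caveolin gene cav-1 (−2.21), lrp-2 (−0.38), the adaptor gene dab-1 (−0.30) and the GTPase gene rab-35 (−0.45). lrp-1 was also higher in number 2 than in number 1 (log2 0.67, adjusted p 0.0139 in edgeR). This receptor and rme-2 belong to the same LDL receptor family and had opposite signs in each comparison between numbers. lrp-2 had the sign of rme-2 in each. Its log2 was −0.38 in number 3 against number 1, −0.28 in number 3 against number 2 and −0.10 in number 2 against number 1. The difference between these genes was not tested.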

How the data were processed

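Poly(A) RNA of 6 whole-animal libraries was measured, 3 ASP and 3 Control, grouped by their titles. The deposited table holds an FPKM value and a count for each gene and library, per the file headers. These deposited counts look like estimated counts written as whole numbers, so rounding changed none. According to the submitters' processing notes, CASAVA 1.4 was used, with mm9 and mm10 (mouse) as builds, but the file's chromosome accessions belong to WBcel235. Which aligner, counter and strand setting were used is not given in the sources used here. Member coordinates were the same in the Ensembl annotation.

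The 13790 genes that averaged 1 FPKM or more were fitted together by edgeR 4.0.16 (quasi-likelihood test, TMM, R 4.3.3), Benjamini-Hochberg adjusted, with calls at 0.05 or below, first for ASP against Control without a block, then for the replicate number with the group as covariate. Family sums were compared by exact permutation tests without pairing (SciPy 1.17.1). Alternatives used limma 3.58.1, DESeq2 1.42.0, other filters and scalings, summed copies, and each library left out in turn.

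Deviations from the group means were correlated between the libraries of a number (r = 0.811 for number 1, 0.524 for number 2 and 0.822 for number 3, over genes), so the numbers were read as pairs. The members, gene lists and tests were chosen with earlier results of these data known. The text names all 7 members, fixed regulators and transport genes, called list members, and the 5 genes nearest to each profile. Most of these list members were chosen by the smallest p, but lin-42 of the molting list was not. In number 3 against number 1, sqt-1, rol-6 and qua-1 had a smaller p than lin-42.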

Additional observations from a re-analysis of the deposited data

How the results depend on the processing

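The 7 members kept their calls as lower in number 3 than in number 1 and in number 2 in all 15 alternatives run for the numbers. In 6 of these 1 library is left out, so that 1 number has a lone library, which is assumed to vary like the others. Each of these 6 fits has 1 residual degree of freedom. In another alternative vit-1 was summed with vit-2, and vit-3 with vit-4 and vit-5. The calls of these genes there are those of the sums, not of each gene. Without a filter on low values, 1804 genes passed the F test for the numbers, against 4579. With library totals that leave out the vitellogenins and no scaling factors, the median of all genes in number 3 against number 1 was −0.12 in place of −0.01, with 1931 genes higher and 3523 lower in place of 2527 and 2640. With vit-1 and vit-2 summed, number 2 against number 1 stood at −0.14, and with vit-3, vit-4 and vit-5 summed at 0.058, values of the sums, whose signs are opposite to those of vit-1 and of vit-5 alone. The call of rme-2 as lower in number 2 than in number 1 ended without a filter (adjusted p 0.266 in edgeR).

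For ASP against Control the replicate block, the scalings, filters, other tools and single left-out libraries gave 0 called genes. With the block, and with both libraries of a number left out (chosen after the data were seen), 3 genes were called without number 1 and 39 without number 3, none of them a member. Without number 1, vit-1, vit-4 and vit-5 were above 0 (0.063, 0.028 and 0.053). With 1 library left out and no block, the log2 difference ran from −0.53 to 0.23 for vit-1, −0.46 to 0.26 for vit-2, −0.39 to 0.20 for vit-3, −0.48 to 0.24 for vit-4, −0.49 to 0.31 for vit-5, −0.43 to 0.23 for vit-6 and −0.41 to 0.24 for rme-2. Each of these fits breaks a pair, so the differences between the numbers enter the values. The replicate number, with the group as covariate, was also fitted with 1 library left out. There number 2 against number 1 ran from −0.042 to 0.47 for vit-1, −0.085 to 0.39 for vit-3, −0.31 to 0.072 for vit-5 and −0.32 to 0.047 for vit-6. Between ASP and Control, again with 1 library left out, the difference in vitellogenin share ran from −0.429 to 0.259 percentage points, that in the vit-6 part from −1.01 to 0.356, and that in the log2 ratio of rme-2 from −0.144 to 0.205. The cause of these changes was not tested. With 3 libraries a group, and with the spread between the numbers inside each group, small differences between ASP and Control were not detectable without the block.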
